A study of Mus musculus with 10 samples.

Results

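Myofibroblasts are activated fibroblasts that combine a contractile actin cytoskeleton with heavy secretion of extracellular matrix, and in pancreatic cancer they are 1 of the states that cancer-associated fibroblasts can take. The account below covers 10 genes widely used to mark that state, taken by gene symbol from the count table, where they are 10 of 55487 genes. They fall into 3 roles: the contractile genes Acta2, Tagln, Myl9 and Tpm2, the secreted matrix genes Postn, Thbs2, Cthrc1 and Tnc, and the cell surface genes Lrrc15 and Fap. All 10 passed the low-count filter, and the lowest estimated count of any of them in any tumour was 122.

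Polyadenylated RNA was sequenced from 10 primary pancreatic tumours of KPF mice, which model pancreatic cancer, on the C57BL/6J background. 5 tumours are labelled Grem1-deleted (Grem1∆/∆) and came from mice given tamoxifen at 100 mg/kg once daily for 5 days from 5 weeks of age. The other 5 are labelled Grem1 wild-type (Grem1wt/wt) and came from mice given peanut oil on the same schedule, so genotype and tamoxifen cannot be told apart. Gremlin 1, the product of Grem1, is a secreted protein that blocks bone morphogenetic proteins. Mice of both groups were used between 6 and 12 weeks of age. The labels give neither the recombinase that tamoxifen activates, nor its promoter, nor the alleles behind the name KPF. They describe the material as bulk tumour, although the extraction text speaks of sorted cells. Each title holds its own ID, but the labels do not say what it stands for or whether each tumour came from its own mouse. The p-values below therefore measure the spread between these libraries.

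Total estimated counts ran from 10159891 to 18571519 per tumour. Levels are given as CPM, the count scaled to a fixed library size, and differences as log2 fold changes, deleted over wild-type, from edgeR's quasi-likelihood test with Benjamini-Hochberg adjustment over 16565 genes. Grem1 measured 47.6, 110.1, 12.6, 6.83 and 23.7 CPM in tumours labelled deleted 1 to 5, against 15.7, 43.1, 23.0, 3.97 and 9.48 CPM in wild-type tumours 1 to 5. The Grem1 level was thus not lower in the libraries labelled deleted, and "deleted" below refers to the label. All 10 pan-fibroblast markers, among them the collagen genes Col1a1, Col1a2 and Col3a1, were detected in every tumour. Their summed level ran from 9458 to 29426 CPM in deleted tumours and from 16897 to 29232 CPM in wild-type tumours, with the lowest sum in deleted tumour 1. These 3 collagen genes had the highest levels of the list and weigh most in the sum. They were lowest in deleted tumour 1, as were Col6a3, Dcn, Lum and Thy1. Pdgfrb was highest there, at 353 CPM against at most 225 CPM in wild-type tumours. Pdpn (83.5 CPM) and Fbln2 (1302 CPM) lay there inside the wild-type range. In bulk samples fewer cells of a type and less RNA per cell cannot be told apart.

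2 libraries stood apart, 1 for several of the 10 genes and 1 for marker lists of other tissues. Deleted tumour 1 had the lowest level of all 10 tumours for Acta2, Tagln, Myl9, Postn and Tnc, and the highest for Cthrc1 and Lrrc15. Deleted tumour 2 had the highest summed level of visceral smooth muscle markers, at 542 CPM, and of intestinal epithelium markers, at 2032 CPM. In the other 9 tumours the visceral smooth muscle sum was at most 232 CPM and the intestinal sum at most 122 CPM.

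No gene in the whole table passed an adjusted p of 0.05 with edgeR (0%), and 983 genes (5.93%) had an unadjusted p under 0.05. DESeq2 called 7 genes, none of them among the 10, and limma-voom called 0. Of the 10 myofibroblast genes 8 had a log2 fold change below 0, against 44.9% of all genes tested. 3 of the 10, Thbs2, Tnc and Fap, had an unadjusted p under 0.05 and lay lower in deleted tumours, as did 2.46% of all genes; 0 of the 10 had such a p and lay higher, as did 3.47% of all genes. The median log2 fold change of the 10 genes was -0.29, beside 0.03 over all genes tested. By role, the median was -0.15 for the contractile genes, -0.46 for the matrix genes and -0.29 for the 2 surface genes. Without deleted tumour 1, 8 of the 10 again lay below 0, their median was -0.36 and the medians by role were 0.10 for the contractile, -0.51 for the matrix and -0.76 for the surface genes. Without deleted tumour 2 they were -0.33, -0.45 and -0.16, in the same order of roles. With deleted tumour 1 left out, 3 had an unadjusted p under 0.05: Thbs2, Fap and, in place of Tnc, Cthrc1. Leaving out each of the 10 tumours in turn, between 6 (without wild-type tumour 3) and 8 of the 10 genes lay below 0 and the lowest median was -0.43, with wild-type tumour 2 left out, and the highest -0.18, with wild-type tumour 1 left out. The count of genes with an unadjusted p under 0.05 was 2 without deleted tumour 3 or without any 1 of the wild-type tumours, and also 2 under RLE scaling and under no scaling.

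**Figure D1:**
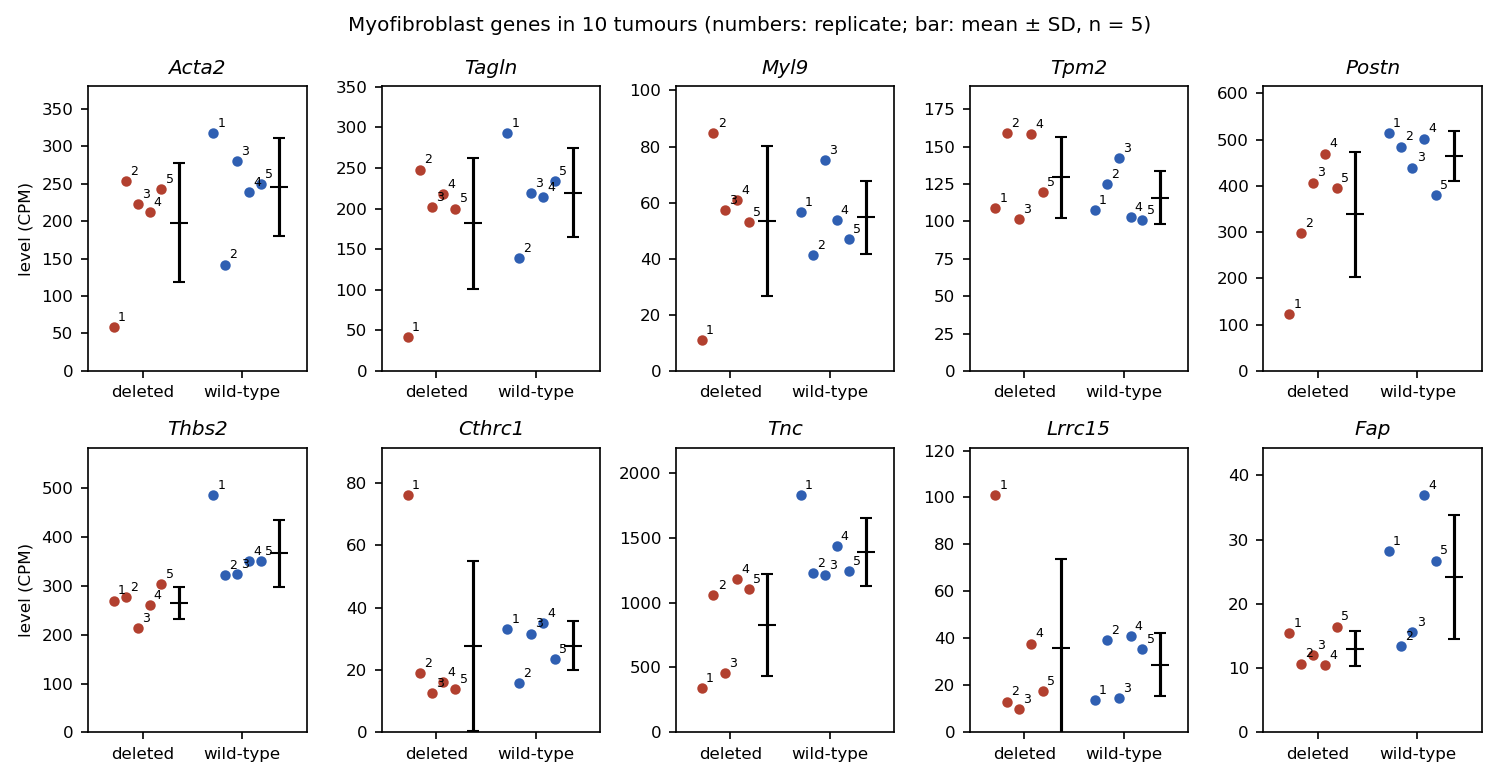
Level in CPM (linear axis from 0) of the 10 genes in each tumour, with deleted tumours left and wild-type tumours right of each panel; numbers are replicates, and the bar beside the points is the mean with its SD (n = 5), cut off at 0 for Lrrc15. Thbs2 and Tnc are the 2 genes whose groups do not overlap, and deleted tumour 1 lies lowest for Acta2, Tagln and Myl9 and highest for Cthrc1 and Lrrc15.

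The contractile genes gave no difference between groups that passed the test. Acta2 encodes smooth muscle alpha-actin, the actin of stress fibres by which myofibroblasts are usually recognised. It lies on chromosome 19 (GRCm38 chr19:34241090-34255590, minus strand). Its level was 58.4, 254, 222, 212 and 243 CPM in deleted tumours 1 to 5, against 317, 142, 279.9, 239 and 249 CPM in wild-type tumours 1 to 5. Deleted tumour 1 was far below the other tumours, at 0.411 times the next lowest, and the other 4 deleted tumours lay inside the wild-type range. Means were 198 ± 79.7 CPM in deleted tumours and 245 ± 65.3 CPM in wild-type tumours (SD, n = 5 each). This gave a log2 fold change of -0.31 (SE 0.35, edgeR adjusted p = 0.827), with a 95% interval from -1.10 to 0.48. Without deleted tumour 1 it was -0.08 (SE 0.20). Of the 50-base windows of Acta2 transcripts 0.326% also occur in transcripts of other genes, and its estimated count was not whole in 2 of 10 tumours.

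Tagln encodes transgelin (SM22-alpha), an actin-binding protein of smooth muscle and myofibroblasts (chr9:45929619-45936058, minus strand). It measured 42.1, 248, 202, 218 and 200.1 CPM in deleted tumours 1 to 5, against 293, 139, 219, 214 and 234 CPM in wild-type tumours 1 to 5. The tumours ranked nearly as for Acta2, with deleted tumour 1 lowest and wild-type tumour 1 highest, and the groups overlapped. For Tagln the log2 fold change was -0.27 (SE 0.39, edgeR adjusted p = 0.866), and -0.02 (SE 0.18) without deleted tumour 1. Exons of Tagln overlap those of the antisense gene Gm48529 over 1241 bases and those of Pcsk7 over 108 bases. Of the 50-base windows of Tagln transcripts 55.4% also occur in Gm48529 on the opposite strand. The estimated count of Tagln was not whole in 0 of 10 tumours. The labels and processing notes do not say whether counting was stranded, so the Tagln level is uncertain: Gm48529 itself was counted at 19.6 to 100.3 CPM in deleted tumours and 60.1 to 110.1 CPM in wild-type tumours.

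Myl9 encodes a regulatory light chain of non-muscle and smooth muscle myosin (chr2:156775420-156781658, plus strand). Its level was 10.9, 84.7, 57.4, 61.0 and 52.9 CPM in deleted tumours 1 to 5, against 56.7, 41.2, 75.1, 53.6 and 46.9 CPM in wild-type tumours 1 to 5. The deleted group held both the lowest and the highest of the 10 tumours, deleted tumours 1 and 2. For Myl9 the log2 fold change was -0.03 (SE 0.41, edgeR adjusted p = 0.986). It was 0.22 (SE 0.19) without deleted tumour 1, -0.26 (SE 0.42) without deleted tumour 2 and 0.06 (SE 0.18) without both.

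Tpm2 encodes beta-tropomyosin, which lies along actin filaments (chr4:43514711-43523765, minus strand). It was the steadiest of the 10 genes, with a highest level 1.57 times the lowest over all 10 tumours. It measured 109, 159, 102, 158 and 119.5 CPM in deleted tumours 1 to 5, against 107, 125, 143, 103 and 101 CPM in wild-type tumours 1 to 5. The groups overlapped, and deleted tumour 1 was not low for Tpm2. Its log2 fold change was 0.16 (SE 0.16, edgeR adjusted p = 0.799), with a 95% interval from -0.18 to 0.51, and 0.08 (SE 0.15) without deleted tumour 2. Of the 3 scaling methods run (trimmed mean of M values, RLE and none), none turned the sign of any of the 10 genes.

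The starts of 2 contractile genes are shown because Acta2 and Myl9 were both lowest in deleted tumour 1, and those of Thbs2 and Tnc because their groups did not overlap. Each sequence is the 250 bases before a RefSeq transcription start (GRCm38.p6), read 5′ to 3′ on the gene's strand, and 7 of the 10 genes matched the promoter table. Capitals mark 3 motifs, searched on both strands. These are the CArG box, the binding motif of serum response factor, allowing 1 base off in its central stretch; GGAATG, the M-CAT motif of TEAD factors; and CAGAC, a SMAD-binding motif. The Acta2 window is chr19:34255374-34255623 on the minus strand, Myl9 chr2:156775214-156775463 on the plus strand, Thbs2 chr17:14694263-14694512 on the minus strand and Tnc chr4:64046937-64047186 on the minus strand. The table has 2 starts for Tnc, and the window with a marked motif is shown.
Acta2: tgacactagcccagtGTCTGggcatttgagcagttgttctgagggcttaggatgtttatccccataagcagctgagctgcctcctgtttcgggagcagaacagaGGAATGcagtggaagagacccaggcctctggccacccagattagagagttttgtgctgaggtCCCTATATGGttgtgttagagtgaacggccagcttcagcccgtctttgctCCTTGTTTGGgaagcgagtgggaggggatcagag
Myl9: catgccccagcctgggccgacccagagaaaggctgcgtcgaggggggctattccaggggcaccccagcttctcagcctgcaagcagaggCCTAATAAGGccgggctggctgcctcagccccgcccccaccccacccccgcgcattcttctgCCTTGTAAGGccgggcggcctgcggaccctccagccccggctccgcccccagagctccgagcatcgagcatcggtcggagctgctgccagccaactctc
Thbs2: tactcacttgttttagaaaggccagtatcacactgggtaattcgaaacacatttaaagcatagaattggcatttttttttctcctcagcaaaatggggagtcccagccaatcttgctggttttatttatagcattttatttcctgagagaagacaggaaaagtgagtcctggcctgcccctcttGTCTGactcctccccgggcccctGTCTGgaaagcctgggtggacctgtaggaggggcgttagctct
Tnc: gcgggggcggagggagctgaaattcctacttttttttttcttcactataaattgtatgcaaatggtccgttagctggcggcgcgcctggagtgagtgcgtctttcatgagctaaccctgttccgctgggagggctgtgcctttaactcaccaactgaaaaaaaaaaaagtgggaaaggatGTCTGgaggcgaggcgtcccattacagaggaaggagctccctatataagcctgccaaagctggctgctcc
The Acta2 window holds 2 CArG-like matches, which begin 84 and 34 bases before the start, 1 GGAATG at 146 bases and 1 CAGAC on the other strand at 235 bases. The Myl9 window holds 1 strict CArG box at 161 bases and 1 CArG-like match at 99 bases. The Thbs2 window holds 2 CAGAC matches on the other strand, at 66 and 43 bases, and the Tnc window 1, at 70 bases. No 2 marked motifs overlap. Postn was also lowest in deleted tumour 1, and its windows, not shown, hold 0 CArG-like matches, 0 GGAATG and, in the upstream window, 1 CAGAC. The windows of Tpm2 and Lrrc15, also not shown, hold 0 of the 3 marked motifs. Among 32851 promoter windows of the same length, a strict CArG box was found in 1.47%, a CArG-like match in 8.59%, GGAATG in 12.6% and CAGAC in 42.2%. A match describes these letters and is not evidence of binding in these tumours.

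The 4 matrix genes all had log2 fold changes below 0 over all tumours, though Cthrc1 only at -0.02 (SE 0.51), and none passed the adjusted threshold. Of the 4, 1 lay above 0 when any 1 of deleted tumours 2 to 5 or of wild-type tumours 1, 3 and 4 was left out. Thbs2 encodes thrombospondin 2, a matricellular protein that binds CD36, CD47 and integrins and restrains angiogenesis (chr17:14665500-14694235, minus strand). It measured 269.9, 277, 214, 262 and 304 CPM in deleted tumours 1 to 5, against 487, 323, 324, 351 and 350.4 CPM in wild-type tumours 1 to 5. Every deleted tumour lay below every wild-type tumour, which held for 0.435% of all genes tested, and wild-type tumour 1 was the highest. Means were 265 ± 32.7 CPM in deleted tumours and 367 ± 68.3 CPM in wild-type tumours (SD, n = 5 each). The log2 fold change of Thbs2 was -0.47 (SE 0.14), with a 95% interval from -0.77 to -0.16, an unadjusted p of 0.00616 and an edgeR adjusted p of 0.759. It was -0.47 (SE 0.15) without deleted tumour 1, and by unadjusted p it ranked at place 59 of the genes tested.

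Tnc encodes tenascin-C, a hexameric matrix glycoprotein laid down in tumour stroma and healing wounds (chr4:63959785-64047015, minus strand). Its level was 340.1, 1056, 459, 1177 and 1103 CPM in deleted tumours 1 to 5, against 1828, 1227, 1208, 1433 and 1242 CPM in wild-type tumours 1 to 5. Every deleted tumour again lay below every wild-type tumour, with deleted tumours 1 and 3 lowest and deleted tumour 4 just below wild-type tumour 3. The log2 fold change of Tnc was -0.75 (SE 0.34), with a 95% interval from -1.49 to -0.0016, an unadjusted p of 0.0496 and an edgeR adjusted p of 0.759. Without deleted tumour 1 it was -0.55 (SE 0.26), with an unadjusted p of 0.0616. The largest overlap of a Tnc exon with another gene was 176 bases, with 8030451A03Rik, whose own level was at most 5.35 CPM.

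The epithelial marker score had r of 0.88 with Tnc, which did not pass (adjusted permutation p = 0.0692). It was 0.72 without deleted tumour 1 (adjusted permutation p = 0.224) and 0.41 without the 2 tumours farthest on the score, and 0.85 within deleted tumours and 0.13 within wild-type tumours. The summed level of 7 epithelial markers ran from 1809 to 5060 CPM in deleted tumours and from 4628 to 5888 CPM in wild-type tumours, and it was lowest in deleted tumour 1. All 7 had a log2 fold change below 0, 3 of them with an unadjusted p under 0.05 and 0 past adjustment in edgeR, and none was at 0 CPM in any tumour. Of all genes tested 44.9% lay below 0 and 5.93% had an unadjusted p under 0.05 in edgeR. With the epithelial score as a covariate, edgeR gave log2 fold changes of -0.18 for Tnc (SE 0.28), -0.43 for Thbs2 (SE 0.17) and -0.87 for Fap (SE 0.37), and the adjusted p was 0.988 for Tnc and 0.969 for the other 2. Under the same covariate 4 genes turned above 0, Acta2 to 0.34, Tagln to 0.47, Myl9 to 0.79 and Postn to 0.12, and Lrrc15 turned to -1.01. The 6 macrophage markers had log2 fold changes from -0.64 (Csf1r) to -0.0040 (Cd68), with 1 unadjusted p under 0.05 and 0 past adjustment in edgeR. Their summed level ran from 1148 to 3717 CPM in deleted tumours and from 2553 to 4486 CPM in wild-type tumours. The groups overlapped in this sum. The epithelial score was -1.28 in deleted tumour 1 and ran from -0.31 to 0.29 in deleted tumours 2 to 5. In wild-type tumours it ran from 0.17 to 0.54. The score thus largely followed deleted tumour 1 and the group, and the covariate fit cannot separate epithelial content from them. The part of epithelial or macrophage content in these differences was not tested.

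Postn encodes periostin, a matricellular protein that binds integrins and aids collagen fibre assembly (chr3:54361109-54391037, plus strand). It measured 123, 297, 407, 470.0 and 395 CPM in deleted tumours 1 to 5, against 513, 485, 439.6, 502 and 381 CPM in wild-type tumours 1 to 5. Deleted tumours 1 and 2 were below all others, and the other 3 overlapped with the wild-type tumours. Its log2 fold change was -0.46 (SE 0.29, edgeR adjusted p = 0.759), and it was -0.24 (SE 0.14) without deleted tumour 1 and -0.13 (SE 0.12) without deleted tumours 1 and 2.

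Cthrc1 encodes collagen triple helix repeat containing 1, a secreted protein of activated fibroblasts (chr15:39076932-39087121, plus strand). It measured 76.1, 19.02, 12.6, 16.1 and 13.9 CPM in deleted tumours 1 to 5, against 33.1, 15.8, 31.6, 34.9 and 23.6 CPM in wild-type tumours 1 to 5. Deleted tumour 1 was 2.18 times the next highest tumour, while the other 4 deleted tumours, at 12.6 to 19.02 CPM, lay around the lowest wild-type tumour. Its log2 fold change was -0.02 (SE 0.51, edgeR adjusted p = 0.994) over all tumours and -0.85 (SE 0.23, edgeR unadjusted p = 0.00457, adjusted p = 0.906) without deleted tumour 1.

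The surface genes differed from each other in direction. Fap encodes fibroblast activation protein, a membrane serine protease of the dipeptidyl peptidase family that is used to target tumour stroma (chr2:62500943-62574075, minus strand). It measured 15.4, 10.7, 12.0, 10.5 and 16.4 CPM in deleted tumours 1 to 5, against 28.1, 13.4, 15.6, 36.9 and 26.7 CPM in wild-type tumours 1 to 5. The deleted tumours lay close together, and the groups overlapped at wild-type tumours 2 and 3. Means were 13.0 ± 2.74 CPM in deleted tumours and 24.2 ± 9.68 CPM in wild-type tumours (SD, n = 5 each). The log2 fold change of Fap was -0.89 (SE 0.28), with a 95% interval from -1.52 to -0.27, an unadjusted p of 0.00920 and an edgeR adjusted p of 0.759, and it was -0.96 (SE 0.30) without deleted tumour 1.

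Lrrc15 encodes a leucine-rich repeat membrane protein that in tumours marks myofibroblasts responding to TGF-beta (chr16:30269302-30283256, minus strand). It measured 101, 13.1, 10.01, 37.8 and 17.4 CPM in deleted tumours 1 to 5, against 13.8, 39.3, 14.6, 41.1 and 35.6 CPM in wild-type tumours 1 to 5. Deleted tumour 1 was 2.46 times the next highest tumour, and both groups held low and high tumours among the rest. The highest level of Lrrc15 was 10.1 times the lowest, the widest range of the 10 genes. Its log2 fold change was 0.31 (SE 0.64, edgeR adjusted p = 0.909), and -0.56 (SE 0.47) without deleted tumour 1, so that 1 library set its sign. Without deleted tumour 2 it was 0.52 (SE 0.64).

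**Figure D2:**
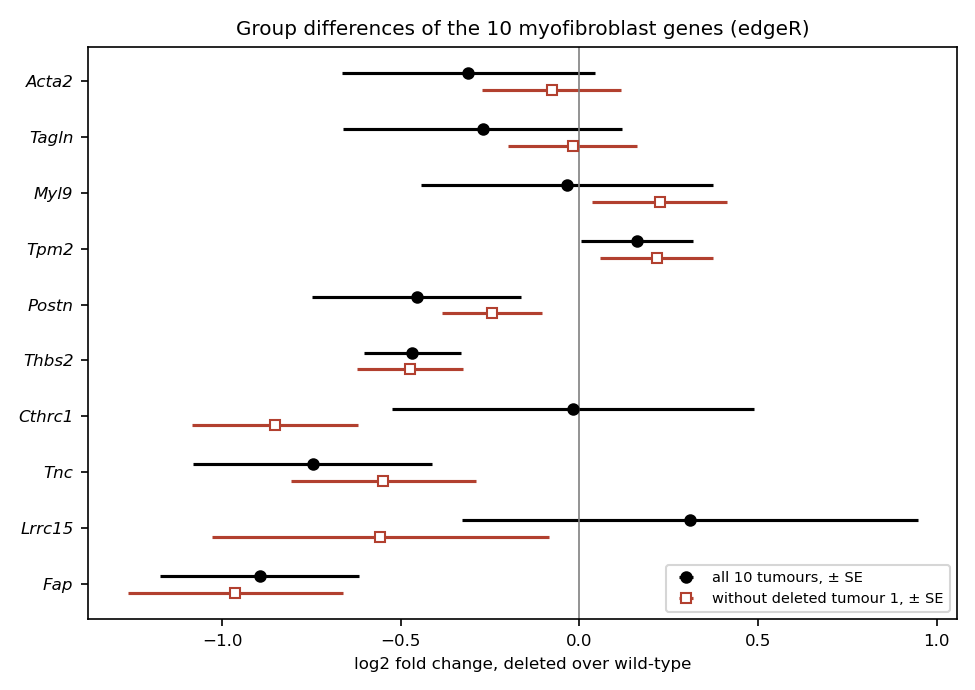
Log2 fold change, deleted over wild-type, of the 10 genes from edgeR, with bars of 1 standard error (SE) to each side; filled circles are all 10 tumours and open squares are 9 tumours without deleted tumour 1. Thbs2 (-0.47) and Fap (-0.89 and -0.96) changed little when that tumour was left out, while Cthrc1 (-0.02 and -0.85) and Lrrc15 (0.31 and -0.56) changed most.

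Per kilobase of exon, Tnc had the highest and Fap the lowest mean level in both groups. Tnc was above Tagln in 9 of 10 tumours, and Lrrc15 above Fap in 7 of 10. The mean level of Tnc was 106 CPM per kilobase in deleted tumours and 179 in wild-type tumours, and that of Fap 2.30 in deleted tumours and 4.27 in wild-type tumours. Tagln (91.6 in deleted tumours, 111 in wild-type tumours) and Acta2 (90.1 in deleted tumours, 112 in wild-type tumours) came next and did not differ beyond their spread, since Tagln led in 6 of 10 tumours. On the same scale Myl9 had 45.9 in deleted tumours and 47.1 in wild-type tumours, Tpm2 44.5 in deleted tumours and 39.8 in wild-type tumours, Postn 38.9 in deleted tumours and 53.3 in wild-type tumours, and Thbs2 37.9 in deleted tumours and 52.4 in wild-type tumours. These 4 traded places from tumour to tumour. Cthrc1 (17.3 in deleted tumours, 17.46 in wild-type tumours) was above Lrrc15 (6.76 in deleted tumours, 5.44 in wild-type tumours) in 10 of 10 tumours. In deleted tumour 1 Cthrc1 had the highest level per kilobase of the 10 genes, at 47.8, whereas it ranked 8 in every wild-type tumour.

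Across tumours Acta2 and Tagln had the highest Pearson r of the 45 pairs among the 10 genes, while Tpm2 had r of 0.14 with Acta2, 0.18 with Tagln and 0.42 with Myl9. Over 10 tumours, Acta2 and Tagln had a Pearson r of 0.98 on log2 CPM (permutation p = 0.00033, Benjamini-Hochberg adjusted p = 0.0280 over 85 relations). Theirs was the only one of the 85 relations whose Pearson r passed adjustment. By rank the pair did not pass, with a Spearman rho of 0.85 (permutation, adjusted p = 0.0850), and Thbs2 with Tnc had a higher rho of 0.89. Without the 2 tumours farthest from the median of Acta2 the r of Acta2 with Tagln was 0.76 (permutation, adjusted p = 0.355). Without deleted tumour 1 it was 0.92 (permutation, adjusted p = 0.0773), so the call rests on those samples. Within deleted tumours r was 0.99 and within wild-type tumours 0.96. Myl9 had r of 0.93 with Acta2 and 0.94 with Tagln, against 0.55 and 0.54 without deleted tumour 1 and 0.17 and 0.16 without the 2 farthest tumours, and neither relation passed (adjusted p = 0.0692 for both, permutation).

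Among the matrix and surface genes, Thbs2 had r of 0.74 with Tnc (rho 0.89) and 0.75 with Fap (rho 0.85). For both pairs the adjusted permutation p was 0.0795 for r and 0.0850 for rho. Without deleted tumour 1 the r values were 0.88 and 0.75. Because both genes of each pair are lower in deleted tumours, values within groups stand beside them: Thbs2 with Tnc had r of 0.51 within deleted tumours and 0.96 within wild-type tumours, and Thbs2 with Fap 0.43 within deleted tumours and 0.50 within wild-type tumours. Between the contractile genes and the other 6, r ran from -0.79 to 0.84 over 24 pairs. Acta2 and Lrrc15 had r of -0.77 (adjusted permutation p = 0.0795), and -0.52 without deleted tumour 1. Postn and Tnc had r of 0.78, and 0.39 without deleted tumour 1.

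**Figure D3:**
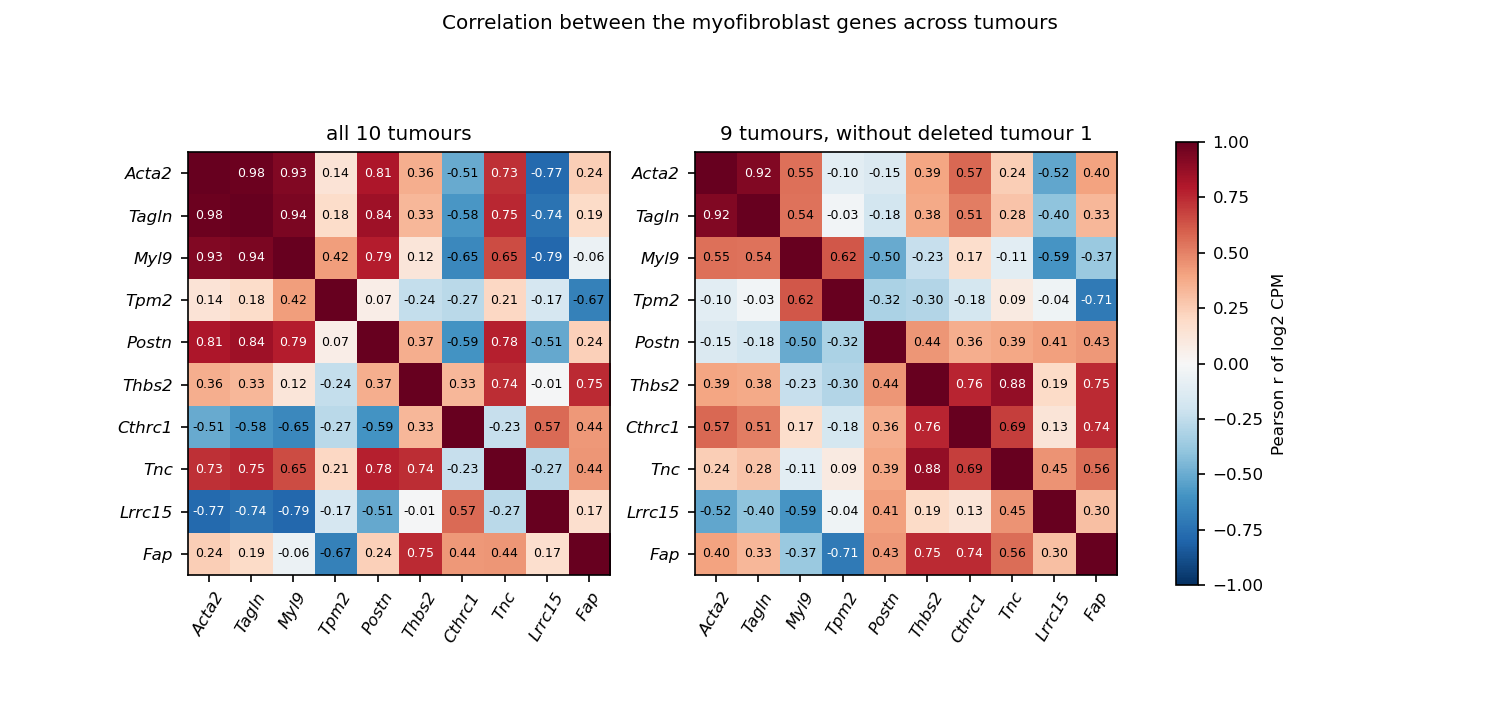
Pearson r of log2 CPM between each pair of the 10 genes across all 10 tumours (left) and across 9 tumours without deleted tumour 1 (right), with red above 0 and blue below. Acta2 with Tagln stays high (0.98 and 0.92), while the values of Lrrc15 with Acta2 (-0.77 and -0.52) and of Postn with Tnc (0.78 and 0.39) shrink without that tumour.

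Marker scores of other cells were set beside the 10 genes in the same family of relations. The score of 10 pericyte and vascular smooth muscle markers, cells that also express Acta2, had r of 0.92 with Acta2, and 0.69 without deleted tumour 1 (adjusted permutation p = 0.0692 and 0.286). Without the 2 tumours farthest on the score it was 0.18. Its summed level ran from 402 to 761 CPM in deleted tumours and from 389 to 864 CPM in wild-type tumours, and of its defining markers none was at 0, while Cox4i2 did not exceed 2.14 CPM. The pan-fibroblast score had r of 0.83 with Postn (adjusted permutation p = 0.0795, and r of 0.37 without deleted tumour 1), and -0.08 with Thbs2. With that score as a covariate the log2 fold changes were -0.49 for Thbs2 (SE 0.14), -0.70 for Tnc (SE 0.32) and -0.92 for Fap (SE 0.30). The macrophage score and Tpm2 had r of -0.52, and -0.94 without deleted tumour 1, where it was the only relation past adjustment (permutation, adjusted p = 0.0153).

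The 3 genes with the highest r to each of the 10 were looked up over all genes tested, with 10 tumours each. For Acta2 they were Gm48529, Pdlim1 and Kalrn, each with r of 0.98, and for Tagln Gm48529 (1.00), Lhpp (0.99) and Kalrn (0.98). Gm48529 shares sequence with Tagln on the opposite strand, as described above. For Myl9 the leading gene was Pde3a (r 0.99), for Postn Cpxm2 (0.99), for Tnc Gm17344 (0.97), for Thbs2 Chmp3 (0.96), for Tpm2 Tars (0.95), for Cthrc1 Slc10a7 (0.95), for Lrrc15 Phf20 (0.94) and for Fap Cnppd1 (0.93). No p is given, since each is the highest of 16565 values.

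Of 14 other genes of the contractile apparatus, 10 lay above 0 and 4 below, with a median log2 fold change of 0.18, and 0 passed adjustment in edgeR (1 had an unadjusted p under 0.05). Over all genes tested 9121 lay above 0 and 7444 below, while 5.93% had an unadjusted p under 0.05 in edgeR. Without deleted tumour 2 the split of the 14 was 8 above and 6 below and their median 0.07. The gene with the unadjusted p under 0.05 was Vcl, which encodes vinculin of focal adhesions, with 322 ± 104 CPM in deleted tumours and 227 ± 36.35 CPM in wild-type tumours (SD, n = 5 each) and a log2 fold change of 0.50 (SE 0.22, adjusted p = 0.759), and of 0.32 (SE 0.18) without deleted tumour 1. Myh9, the heavy chain of non-muscle myosin IIA, was at 0.21 (SE 0.14), with 1486 to 2498 CPM in deleted tumours and 1627 to 1933 CPM in wild-type tumours. The smooth muscle genes Myh11 and Actg2 followed deleted tumour 2: Myh11 reached 170.0 CPM there and at most 61.8 CPM in the other 9, and Actg2 126.7 CPM there and at most 36.5 CPM in the others. The log2 fold change of Actg2 was 0.58 (SE 0.62), and -0.43 without that tumour. Mylk, the myosin light chain kinase, and Cnn1, calponin, were chosen after their values were seen: Mylk was at 30.3 CPM in deleted tumour 1 and at least 122 CPM elsewhere, and Cnn1 at 47.2 CPM in deleted tumour 2 and at most 14.1 CPM elsewhere. Of the genes for serum response factor and its cofactors 3 were tested, with a median log2 fold change of 0.06 and 0 past either threshold.

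**Figure D4:**
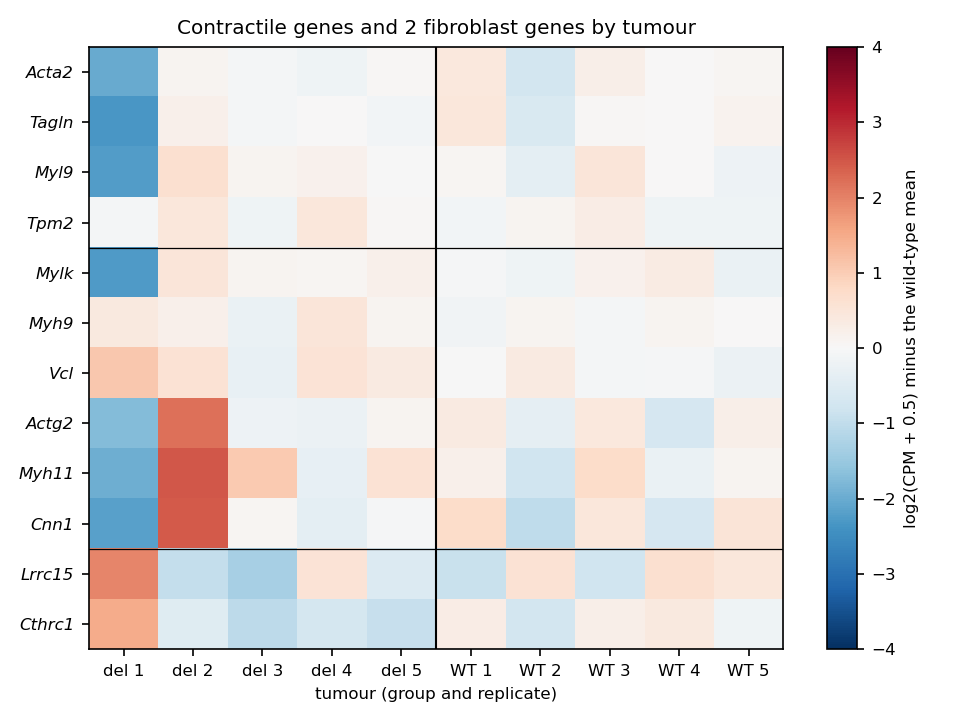
Difference on the log2(CPM + 0.5) scale of each gene from its wild-type mean, for contractile genes of the 10 (top block), other contractile genes (middle) and Lrrc15 and Cthrc1 (bottom), in deleted tumours (left) and wild-type tumours (right). Deleted tumour 1 is low for Acta2, Tagln, Myl9 and Mylk and high for Lrrc15 and Cthrc1, and deleted tumour 2 is high for Actg2, Myh11 and Cnn1.

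Of 20 other genes linked to myofibroblasts, most of them matrix genes, 14 lay below 0 and 6 above, with a median log2 fold change of -0.30. In edgeR 0 passed adjustment and 1 had an unadjusted p under 0.05. Of all genes tested 44.9% lay below 0 and 5.93% had such a p. The 20 include Grem1, at 1.08 (SE 0.79), and the adhesion gene Ncam1, at 0.34 (SE 0.30). The gene with the unadjusted p under 0.05 was Tnn, tenascin-N, a paralog of Tnc, at 85.2 CPM in deleted tumour 1 and at most 2.98 CPM in the other 9 tumours. Its log2 fold change was 3.87 (SE 1.301, adjusted p = 0.759), and 0.64 without that tumour. Col12a1, a fibril-associated collagen, had 630 ± 301 CPM in deleted tumours and 1016 ± 202 CPM in wild-type tumours (SD, n = 5 each), with a log2 fold change of -0.69 (SE 0.34, adjusted p = 0.759).

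TGF-beta is the best known inducer of the myofibroblast state. Of 13 tested ligands, receptors and targets 9 lay below 0 and 4 above, with a median log2 fold change of -0.13; 0 passed adjustment in edgeR and 1 had an unadjusted p under 0.05. That gene was Smad7, an inhibitor of the pathway that is itself induced by it, with 55.8 ± 10.5 CPM in deleted tumours and 44.1 ± 5.81 CPM in wild-type tumours (SD, n = 5 each) and a log2 fold change of 0.34 (SE 0.14, adjusted p = 0.759), and of 0.22 (SE 0.10) without deleted tumour 1. Ltbp1, which tethers latent TGF-beta to the matrix, was at 461.7 CPM in deleted tumour 1 and at most 205 CPM in the other 9 tumours, and its log2 fold change was 1.00 (SE 0.48) over all tumours and 0.41 (SE 0.33) without that one. Of 11 genes for receptors of matrix proteins, not all of them bound by those above, 8 lay above 0 and 3 below. Their median was 0.08, and 0 passed either threshold in edgeR. Beside these 2 lists, 44.9% of all genes tested lay below 0 and 5.93% had an unadjusted p under 0.05 in edgeR. Sdc4, syndecan 4, was at 0.26 (SE 0.13), and at 0.15 (SE 0.10) without deleted tumour 1. Cd36, a receptor for thrombospondins, was at 1.48 (SE 0.80) with 1.16 to 87.8 CPM in deleted tumours and 3.46 to 20.8 CPM in wild-type tumours, and at 0.84 (SE 0.77) without deleted tumour 3, which held the highest level.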

How the data were processed

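PolyA RNA-seq libraries of 10 tumours, 5 per group, were grouped by the genotype and replicate number in their titles. The authors deposited estimated counts per gene (7.96% of values not whole) made with HISAT2 2.2.1 and RSEM 1.3.3 on mm10, per the submitters' processing notes; these share reads between similar genes. Neither strand use nor the annotation release is stated in those notes. The authors also deposited log2 values of unnamed transformation, used for 1 alternative. The column of deleted tumour 1 was matched by the unique end of its name, which lacks part of the title's ID.

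Counts were rounded, filtered with filterByExpr (minimum count 10), normalised with TMM (trimmed mean of M values) and tested with edgeR 4.0.16 (quasi-likelihood, robust, Benjamini-Hochberg, threshold 0.05) in R 4.3.3; scripts were tested on simulated data. CPM uses scaled library sizes, log2 CPM a prior count of 2, levels per kilobase the exon union of GENCODE M21. A marker score is the mean log2 CPM of a list's tested genes, centred on the mean of the 10 tumours. Correlations used 100000 permutations of pairings, two-sided. Promoters are from RefSeq.

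The 10 genes, the lists and the naming rule were chosen with earlier results of these data known. The rule names the 10 genes, at most the 4 genes of smallest p per list, the 3 genes of highest r per gene, paralogs and Grem1. Alternatives were DESeq2 1.42.0, limma-voom (limma 3.58.1), RLE or no scaling, other filters, non-robust dispersions, a replicate block, marker covariates, the deposited log2 values, and leaving out tumours; the correlations without deleted tumour 1 were added after seeing the data.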

Additional observations from a re-analysis of the deposited data

Results flagged for a closer look

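In 76 sets of 5 tumours, covering the named genes and the summed marker lists in each group, 14 held a highest or lowest value whose gap to its neighbour, divided by the range of the set, exceeded 0.710. The rule was applied to CPM without a log, and whether those values are normally distributed was not tested. If they were, chance would flag about 1 in 20 sets of independent genes taken without regard to their values. These sets are not such a sample, since Mylk and Cnn1 were chosen after their values were seen, others for a small p, and Tagln and Gm48529 overlap, so the 14 are not a test. Of the 14 values 7 were in deleted tumour 1 and 3 in deleted tumour 2. No explanation was tested.

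Deleted tumour 1 was low within its group for Acta2 at 58.4 CPM, Tagln at 42.1 CPM, the antisense neighbour Gm48529 at 19.6 CPM and Mylk at 30.3 CPM. It was high for Cthrc1 at 76.1 CPM, Smad7 at 73.8 CPM and Tnn at 85.2 CPM. Deleted tumour 2 was high for the smooth muscle genes Actg2 at 127 CPM and Cnn1 at 47.2 CPM, and for the summed intestinal epithelium markers at 2032 CPM. Deleted tumour 3 was high for Has1, a hyaluronan synthase gene, at 49.9 CPM. Among wild-type tumours, tumour 1 was high for Thbs2 at 487 CPM, tumour 2 for Ltbp1 at 166 CPM and tumour 5 for the summed acinar markers at 16580 CPM.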

How the results depend on the processing

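With 5 tumours per group, the spread between tumours sets the standard errors given. The log2 fold changes of Thbs2, Tnc and Fap kept their sign under all alternatives run. The number of genes called was 0 under each alternative run except DESeq2, which called 7. Lrrc15 reversed to -0.10 with limma-voom, -0.037 with the deposited log2 values, -0.17 with the pan-fibroblast covariate, -1.01 with the epithelial covariate and -0.40 without deleted tumours 1 and 2. Myl9 reversed to 0.065, 0.79 and 0.060 under those last 3 alternatives. The epithelial covariate also turned Acta2 to 0.34, Tagln to 0.47, Postn to 0.12, Gm48529 to 0.44, Ltbp1 to -0.049 and Tnn to -0.29, and left 5 of the 10 genes below 0. Actg2 was at -0.16 without deleted tumours 1 and 2. The labels do not say whether replicate numbers pair the tumours, and the values do not settle it. The correlation of same-numbered deviations from the group means ran from -0.02 to 0.39. For deleted tumours 1 to 5, the same-numbered tumour ranked 2, 2, 1, 3 and 1 among the 5 wild-type tumours by this correlation. With the replicate number as a block 0 genes were called, Lrrc15 was at -0.20 and Tnc at -0.88 (SE 0.38). Leaving out 1 tumour at a time, Lrrc15 ran from -0.56 to 0.54, Cthrc1 from -0.85 to 0.15, Myl9 from -0.26 to 0.22, Actg2 from -0.43 to 0.84 and Gm48529 from -0.37 to 0.011. The r of Acta2 with Tagln lost its call without deleted tumour 1 or the 2 farthest tumours, and that of macrophage markers with Tpm2 gained one (-0.94 and -0.95). The causes of these shifts were not tested.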

Other observations

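Genes of the inflammatory state of cancer-associated fibroblasts, often set against the myofibroblast state, lay mostly above 0: of 16 tested 12 were higher in deleted tumours and 4 lower, with a median log2 fold change of 0.24 and 0 past adjustment in edgeR (2 had an unadjusted p under 0.05). Over all genes tested 9121 lay above 0 and 7444 below, and 5.93% had an unadjusted p under 0.05 in edgeR. The median of the 16 was 0.03 with limma-voom and 0.07 without wild-type tumour 2. Pdgfra, a receptor for platelet-derived growth factor, measured 197 ± 52.4 CPM in deleted tumours and 117 ± 20.7 CPM in wild-type tumours (SD, n = 5 each), and its log2 fold change was 0.75 (SE 0.20, edgeR adjusted p = 0.759). It ran from 0.64 to 0.87 when 1 tumour at a time was left out. Has1 was at 1.78 (SE 0.77), and at 0.30 without deleted tumour 3, which held 49.9 CPM. Without that tumour the median of the 16 genes was -0.21, and 4 of them lay above 0 and 12 below.

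Of 7 genes of antigen-presenting fibroblasts, which macrophages also express in large part, 5 lay below 0 and 2 above, with a median log2 fold change of -1.08 and 0 past adjustment in edgeR (2 had an unadjusted p under 0.05). The 2 went opposite ways, Fcer1g lower and Saa3 higher in deleted tumours. Of all genes tested 44.9% lay below 0, and 5.93% had an unadjusted p under 0.05 in edgeR. Cd74, H2-Aa, H2-Ab1 and H2-Eb1 ran from -1.21 to -1.08 (SE 0.72 to 0.76), each lowest in deleted tumour 1. The median of the 7 was -0.77 without deleted tumour 1, -0.48 without deleted tumours 1 and 2, and -1.55 without deleted tumour 3. Fcer1g, an immune receptor subunit, was at -0.54 (SE 0.19), with 42.1 to 72.3 CPM in deleted tumours and 58.2 to 105 CPM in wild-type tumours. Saa3, an acute phase protein gene, was at 1.21 (SE 0.44), with 122 to 499 CPM in deleted tumours and 52.0 to 147.7 CPM in wild-type tumours, and at 0.74 (SE 0.36) without deleted tumour 3. The summed macrophage markers ran from 1148 to 3717 CPM in deleted tumours and from 2553 to 4486 CPM in wild-type tumours, and their part in these values was not tested.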
